A study of Mus musculus with 9 samples.

Results

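Nr4a1, Nr4a2 and Nr4a3, the complete NR4A family of orphan nuclear receptors in the mouse, were followed across the 9 colon libraries by their gene symbols, 3 among 22262 genes that had at least 1 count. The choice rested on these data: Nr4a2 had been seen to have higher counts in the enriched than in the standard housing, and its 2 relatives were added. The difference of the members between the housing conditions is therefore given as a description, with no test.

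The study asked whether the surroundings of a mouse change gene expression in its colon. Wild type C57BL/6N females of 12 months were used, 4 from the standard environment (WT_SE, mice 1, 2, 3 and 5), where 3 to 4 animals shared a standard cage, and 5 from the enriched environment (WT_EE, mice 1 to 5). The enriched animals had lived from weaning in a larger cage, 8 females together, with objects that were moved around, wheels to run in, and things to climb on and crawl through. Each library was made from a rinsed 2 to 3 cm piece of the upper colon, with all layers of the wall together, and 3′ ends of messenger RNA were counted as molecules by their identifiers. Which mice shared a cage is not given in the sources used here, so an effect of the cage and an effect of the environment cannot be told apart. Other genotypes were not analysed here.

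The libraries held between 295535 and 454043 counts. The floor set for a count of 0, 3 counts in a library, corresponded to between 6.61 and 10.2 on the counts-per-million scale (CPM) used below. Summed epithelial markers lay between 1880 and 2293 CPM in WT_SE and between 2041 and 2561 CPM in WT_EE, and summed smooth muscle markers between 1668 and 2140 CPM and between 1674 and 3127 CPM, so the defining markers of the labelled tissue were present. The library names of WT_SE mice 1 and 3 end in L3 and those of the other 7 mice in L2, and what the ending stands for is not stated in the labels. The differences in Nr4a1, in Nr4a2 and in their sum with Nr4a3 are given below with and without these 2 libraries, and the other values with all 9 unless stated. Counts of Slc10a2, the ileal bile acid transporter, chosen after its values were seen, ran from 16 to 110 in WT_SE and from 3 to 117 in WT_EE, and thus varied widely within both groups. Hoxb13, a posterior Hox gene also named after its values were seen, had 4, 0, 0 and 56 counts in WT_SE mice 1, 2, 3 and 5. In WT_EE mice 1 to 5 it had 0, 45, 21, 24 and 20 counts. Whether the place of the pieces along the colon differed between the groups was not tested.

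The NR4A receptors are transcription factors of the nuclear receptor superfamily whose ligand pocket is filled by bulky side chains, so that their activity is set mainly by how much of the protein is made. Their genes are early response genes: cyclic AMP, calcium, growth factors, stretch and inflammatory signals switch them on within minutes to hours through CREB and its CRTC coactivators, MEF2 and SRF, and the transcripts are short-lived. The proteins bind the NBRE, a hormone response element, as monomers, pairs of them bind the related NurRE, and Nr4a1 and Nr4a2 also pair with the retinoid X receptors. Nr4a1 (Nur77) is known for its part in T cell selection and in macrophages, Nr4a2 (Nurr1) for making and keeping dopamine neurons, and Nr4a3 (Nor1) for overlapping roles in blood cells, vessels and muscle.

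Because these genes are known as targets of CREB, the 250 bases before the RefSeq transcript start used for each member are shown first. They come from RefSeq on GRCm38.p6, are written 5′ to 3′ on the strand of the gene, and carry in capitals each match to the core of the cyclic AMP response element (CRE), TGACG, or its reverse complement CGTCA. They lie at chr15:101266596-101266845 on the plus strand for Nr4a1, at chr2:57124004-57124253 on the minus strand for Nr4a2 and at chr4:48045055-48045304 on the plus strand for Nr4a3.
Nr4a1: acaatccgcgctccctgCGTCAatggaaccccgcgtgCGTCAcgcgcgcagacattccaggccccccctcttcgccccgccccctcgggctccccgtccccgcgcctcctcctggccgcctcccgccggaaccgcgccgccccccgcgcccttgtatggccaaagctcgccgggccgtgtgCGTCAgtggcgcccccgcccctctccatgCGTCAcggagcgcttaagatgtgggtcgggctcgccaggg
Nr4a2: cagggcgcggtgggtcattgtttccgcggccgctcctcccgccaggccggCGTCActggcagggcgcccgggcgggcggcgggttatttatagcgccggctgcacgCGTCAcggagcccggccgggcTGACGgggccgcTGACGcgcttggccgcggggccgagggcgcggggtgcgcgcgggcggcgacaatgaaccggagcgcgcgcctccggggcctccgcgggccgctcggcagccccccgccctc
Nr4a3: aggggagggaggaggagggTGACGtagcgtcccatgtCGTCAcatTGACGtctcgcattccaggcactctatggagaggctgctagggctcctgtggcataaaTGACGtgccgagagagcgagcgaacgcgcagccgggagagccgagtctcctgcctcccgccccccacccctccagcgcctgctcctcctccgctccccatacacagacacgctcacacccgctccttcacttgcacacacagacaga

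Each of the 3 promoters held 4 CRE cores, none of them overlapping another. In the window searched, 250 bases before to 50 after the start on both strands, 20.8% of the 32851 RefSeq promoters had at least 1 core, and 76 of them (0.231%) had 4 or more. The first bases of the cores lay at −233, −213, −69 and −40 from the start in Nr4a1, at −200, −144, −123 and −111 in Nr4a2, and at −231, −213, −205 and −147 in Nr4a3. The whole palindromic CRE, TGACGTCA, which contains a core on each strand, was in none of the 3 windows and in 1.79% of all promoters. The 3 windows were rich in G and C, with 72.3% in Nr4a1, 81.7% in Nr4a2 and 64.7% in Nr4a3, against a median of 52.7% over all promoters, and what share this composition had in the number of cores was not tested.

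**Figure D1:**
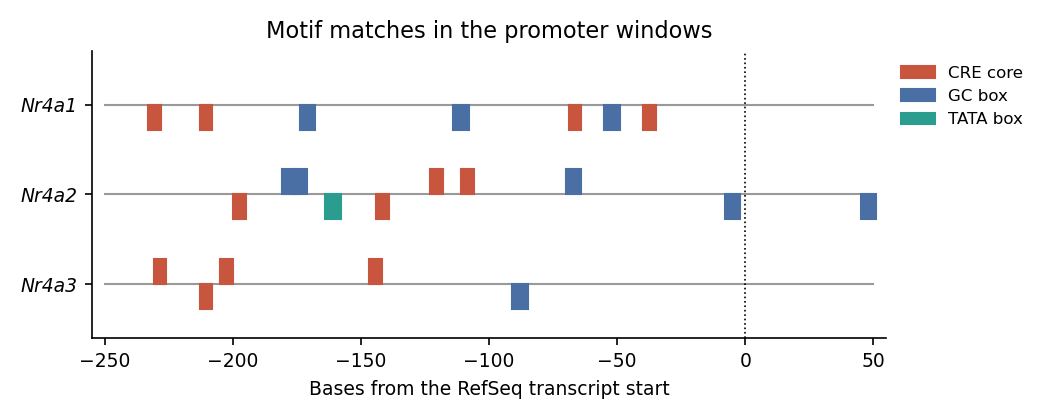
Motif matches in the promoter windows of the 3 Nr4a genes, by distance in bases from the RefSeq transcript start, with matches on the strand of the gene drawn above each line and those on the other strand below it. Each line carries 4 CRE cores (red), all of them upstream of the start, beside 3, 5 and 1 GC boxes (blue) and a single TATA box match (green) in Nr4a2.

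Of the other motifs searched, the GC box, GGGCGG, matched 3 times in Nr4a1, 5 times in Nr4a2 and 1 time in Nr4a3, and at least 1 time in 35.7% of all promoters. The TATA box, TATAAA, matched 1 time in Nr4a2, on the other strand at −164, and in 13.6% of all promoters. There was no match in the 3 windows to the AP-1 site, TGACTCA (5.2% of all promoters), to the NBRE that the NR4A proteins bind, AAAGGTCA (1.51%), or to the CArG box of SRF (1.63%). Among the other early response genes listed below, 21 of the 32 found in the table had a CRE core in at least 1 of their promoters, and among the other nuclear receptor genes 12 of 40. These are matches of letters and do not show that a factor was bound.

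The gene of Nr4a1 (ENSMUSG00000023034) spans bases 101254269 to 101274795 of chromosome 15 on GRCm38, on the plus strand, in GENCODE M21. Nr4a2 (ENSMUSG00000026826) spans 57106830 to 57124003 of chromosome 2 on the minus strand, and Nr4a3 spans 48045153 to 48086447 of chromosome 4 on the plus strand. No annotated gene overlaps any of them, so their reads are not shared with an overlapping or antisense gene. The RefSeq starts used above for Nr4a1 and Nr4a3 lie inside these spans, and promoters of other annotated starts were not searched. The last exon of the coding transcript that reaches farthest has 800 bases in Nr4a1, 1583 in Nr4a2 and 3343 in Nr4a3. It overlaps the last exons of 2 of the 3 coding transcripts of Nr4a1, all 3 of Nr4a2 and both of Nr4a3. The coding transcripts of each member have 2 distinct annotated 3′ ends. The counts are given per gene, so the transcripts of a member are not separated here.

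Nr4a2 was the member with the greatest difference between the environments. It had 8, 6, 4 and 9 counts in WT_SE mice 1, 2, 3 and 5, and 20, 11, 30, 30 and 31 counts in WT_EE mice 1 to 5. As CPM with TMM library sizes, these were 20.9, 16.7, 13.5 and 24.6 CPM against 43.2, 38.3, 65.6, 92.8 and 71.7 CPM. The groups did not overlap: the lowest enriched mouse, mouse 2, lay above the highest standard mouse, mouse 5. The 4 standard mice averaged 18.9 ± 4.83 CPM (SD) and the 5 enriched mice 62.3 ± 22.2 CPM (SD), 3.29 times as much, and the fitted log2 fold change was 1.68 with a standard error of 0.32. Of the 17441 genes tested, 1.38% had all WT_EE libraries above all WT_SE libraries, and nothing is read from this for a gene chosen on the same contrast. In whole tissue, more cells that express a gene and more of its RNA per cell cannot be told apart.

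Within WT_EE, mice 1 and 2 had lower Nr4a2 levels than mice 3, 4 and 5, with no value between 43.2 and 65.6 CPM. The coefficient of variation was 35.6% over the 5 enriched mice, where counting alone gives 20.2% at their mean count. In WT_SE it was 25.5%, below the 38.5% that counting alone gives. With 4 or 5 mice of unequal depth, these coefficients are descriptions only. Without the 2 libraries named L3, the mean of WT_SE was 20.7 CPM, the ratio 3.02 and the log2 fold change 1.59 with a standard error of 0.40.

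Nr4a1 differed less, and its groups overlapped. WT_SE mice 1, 2, 3 and 5 had 10, 14, 3 and 10 counts, and WT_EE mice 1 to 5 had 16, 15, 26, 11 and 23 counts. These were 26.1, 39.0, 10.1 and 27.3 CPM against 34.5, 52.3, 56.8, 34.0 and 53.2 CPM. Standard mouse 2 lay above enriched mice 1 and 4, the other 3 enriched mice lay above every standard mouse, and standard mouse 3 was at the floor. The standard mice averaged 25.6 ± 11.9 CPM (SD, n = 4) and the enriched mice 46.2 ± 11 CPM (SD, n = 5), and the log2 fold change was 0.81 with a standard error of 0.31.

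The difference in Nr4a1 depended in part on standard mouse 3. The log2 fold change was 0.60 without that library and 0.49, with a standard error of 0.35, without both L3 libraries, where the ratio of the means went from 1.80 to 1.39. Over the enriched mice the coefficient of variation of Nr4a1 was 23.8%, beside 23.4% from counting alone.

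Nr4a3 was at the limit of detection. It had 2, 0, 2 and 3 counts in WT_SE mice 1, 2, 3 and 5, and 0, 0, 5, 3 and 6 counts in WT_EE mice 1 to 5. It did not exceed the floor of 3 counts in 4 of 4 standard mice and in 3 of 5 enriched mice, so no fold is given and a difference between the environments was not detectable at this depth. The enriched mice with no count of Nr4a3, mice 1 and 2, were also those with the lowest Nr4a2.

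**Figure D2:**
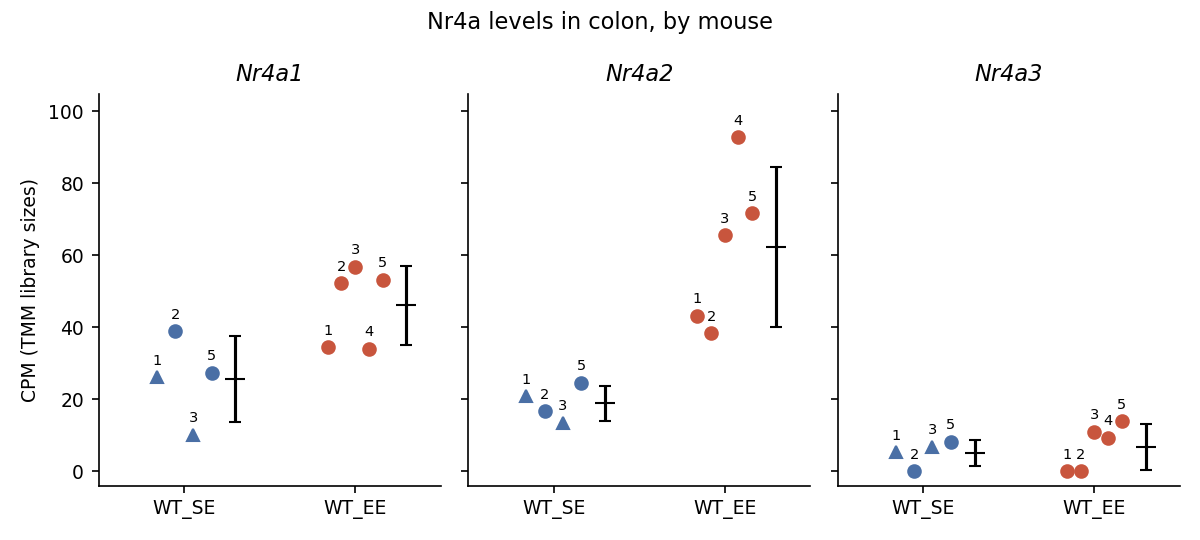
Level of each Nr4a gene in CPM (with TMM library sizes) in each mouse, numbered as in the labels, with triangles for the 2 libraries whose name ends in L3; black bars give the mean ± SD of the 4 WT_SE and the 5 WT_EE mice. Nr4a2 is between 13.5 and 24.6 CPM in WT_SE and between 38.3 and 92.8 CPM in WT_EE, Nr4a1 overlaps, and Nr4a3 is near 0 throughout.

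Summed over the 3 genes, the family had between 30.4 and 60.1 CPM in WT_SE and between 77.7 and 139 CPM in WT_EE. The sum did not overlap between the groups, at 49.6 ± 13.2 CPM (SD, n = 4) against 115 ± 28.9 CPM (SD, n = 5). The ratio of the means was 2.32, and 1.99 without the libraries named L3. Enriched mice 3, 4 and 5 were close together in the sum, between 133 and 139 CPM, although mouse 4 reached it with the most Nr4a2 and the least Nr4a1 of the group.

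The make-up of the family differed in the pooled counts, while single mice overlapped. In the pooled counts of WT_SE, Nr4a1 made up 52.1% of 71 counts, Nr4a2 38.0% and Nr4a3 9.86%. In WT_EE, Nr4a2 made up 53.7% of 227 counts, Nr4a1 40.1% and Nr4a3 6.17%. For Nr4a2 the exact 95% binomial intervals, which cover counting error only, were 26.8% to 50.3% in WT_SE and 47.0% to 60.4% in WT_EE. These intervals overlap and leave out the spread between mice. The share of Nr4a2 also contains the contrast on which the family was chosen, so nothing is read from them. The share of Nr4a2 ran from 30.0% to 44.4% over the standard mice and from 42.3% to 68.2% over the enriched mice, so the groups overlapped in enriched mouse 2 and standard mouse 3.

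**Figure D3:**
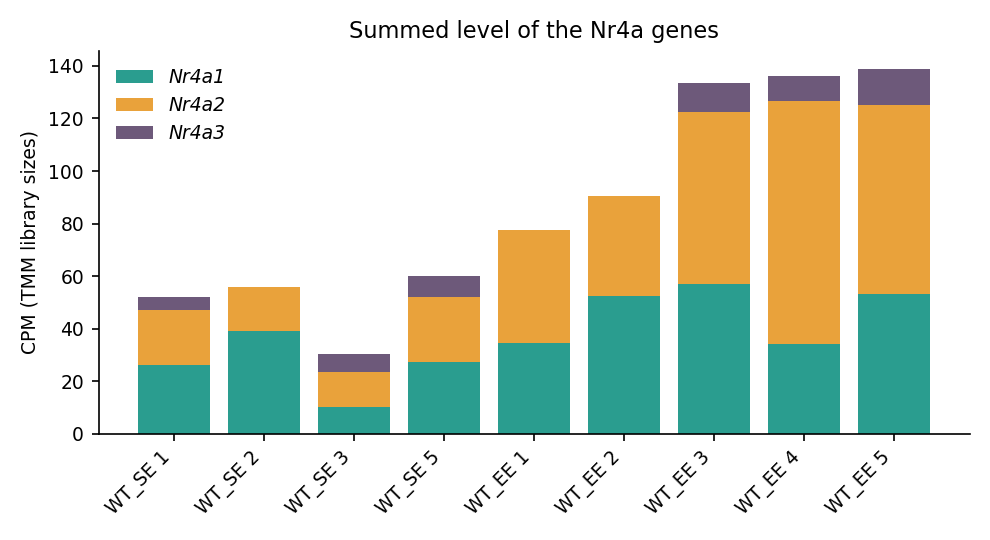
Level of Nr4a1, Nr4a2 and Nr4a3 in CPM, stacked for each of the 4 WT_SE and 5 WT_EE mice (1 library each, so no error bars). The stacks are between 30.4 and 60.1 CPM high in WT_SE and between 77.7 and 139 CPM in WT_EE, and the Nr4a2 segment is the larger one in enriched mice 1, 3, 4 and 5.

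The levels of the members were also set against each other within each library. Since 3′ counting gives a molecule about the same weight whatever its length, counts of different genes can be set side by side, although the capture of single transcripts may differ. Nr4a1 was above Nr4a3 in 9 of 9 libraries, with a mean log2 ratio of 2.76 ± 1.72 (SD, n = 9, 0.5 counts added to each value). Nr4a3 did not exceed the floor in 4 of 4 standard and 3 of 5 enriched mice, so the size of any ratio to Nr4a3 depends on the count added. That of Nr4a1 was 2.36 with 1 count added, and in standard mouse 3 the order rested on 3 against 2 counts. For this pair a two-sided exact sign-flip permutation test gave p = 0.00391, the smallest it can give with 9 libraries, and 0.00586 after Benjamini-Hochberg adjustment over the 3 pairs. That adjustment counted both pairs with Nr4a2, which contain the counts on which the family was chosen. No p is given or read for these 2 pairs, which are only described. Nr4a2 was above Nr4a3 in 9 of 9 libraries, with a mean log2 ratio of 1.94 ± 1.23 in WT_SE (SD, n = 4) and 3.55 ± 1.34 in WT_EE (SD, n = 5).

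Nr4a1 and Nr4a2 had no common order. Their mean log2 ratio was −0.07 ± 0.71 (SD, n = 9), and Nr4a1 was the higher one in 4 of 9 libraries. By environment, the ratio was 0.31 ± 0.63 in WT_SE, where Nr4a1 was higher in 3 of 4 mice, and −0.38 ± 0.66 in WT_EE, where it was higher in 1 of 5.

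Over the 9 libraries, log2 CPM of Nr4a1 and Nr4a2 had a Pearson r of 0.659, which was 0.157 once the mean of each environment was subtracted. For Nr4a2 and Nr4a3 r was 0.406 and, after subtraction, 0.750, and for Nr4a1 and Nr4a3 it was −0.049 and −0.137. These are descriptions over 9 points that share libraries and depth, and those with Nr4a3 rest on at most 6 counts in a library.

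Among all nuclear receptors the members were of middle to low level. With the 42 other receptor genes that had counts, Nr4a1 was at rank 26, Nr4a2 at rank 31 and Nr4a3 at rank 37 of 45 by mean CPM in WT_SE. In WT_EE, Nr4a2 was at rank 19 and Nr4a1 at rank 22, and Nr4a3 stayed at rank 37. The highest receptors were Vdr, the vitamin D receptor, with 311 CPM in WT_SE and 261 CPM in WT_EE, and Hnf4a, a receptor that sets the identity of gut epithelium, with 284 and 261 CPM. In WT_EE they did not differ beyond their SDs of 22.2 and 24.6 CPM. In WT_EE, Nr4a2 with 62.3 CPM stood next to the clock receptor Nr1d1 with 62.9 CPM and the retinoic acid receptor Rarg with 57.0 CPM, and it did not differ from these neighbours beyond its own SD of 22.2 CPM.

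Among the other receptors tested, 34 had more than 3 counts in at least 1 standard library. With all 9 libraries, 0 of these had a log2 fold change above that of Nr4a1 or Nr4a2. Nothing is read from this order, since the family was chosen on the same contrast. Without both L3 libraries Nr4a1 was at 0.49, below Pparg at 0.76. The 3 greatest fitted changes of the list, those of Nr1i3, Rorb and Pgr, belong to genes with at most 3 counts in any library and are given no fold. Of the 39 other receptors tested, 2 rose and 3 fell at an unadjusted p under 0.05 in edgeR's quasi-likelihood test, where 4.31% of all genes tested were called higher and 3.34% lower. Their median log2 fold change was −0.15, against 0.011 over all genes tested, and 24 of the 39 were negative. None passed after Benjamini-Hochberg adjustment, which 0.0401% of all genes did.

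The receptors called were spread over several functions. Ppara, a regulator of fatty acid oxidation, fell by 1.04 on the log2 scale (standard error 0.29), with an unadjusted p of 0.00109 in edgeR's test over all genes. Its level was 88.4 ± 43.7 CPM (SD) in the standard and 40.1 ± 18.8 CPM (SD) in the enriched mice, with overlapping groups. Nr5a2, which supports steroid production in the crypts, fell by 0.49, and Nr3c1, the glucocorticoid receptor, by 0.35. Pparg, a receptor of fat cells and colon epithelium, rose by 0.61, and the fifth call was Nr1i3, with 0 counts in every standard library and 1 to 3 in the enriched ones.

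**Figure D4:**
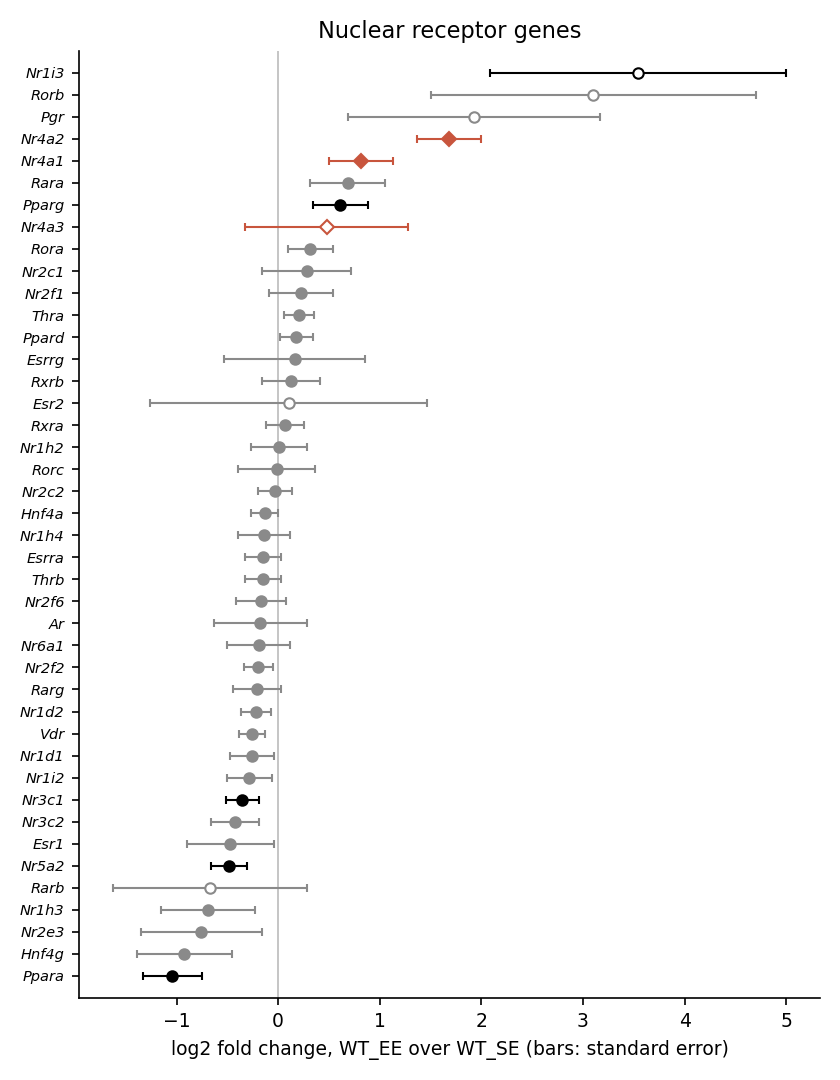
log2 fold change of WT_EE over WT_SE for the 39 other nuclear receptor genes tested and the 3 Nr4a genes (red diamonds), with standard errors from the edgeR fit; black had an unadjusted p under 0.05, grey did not, and open symbols had at most 3 counts in every WT_SE library, so that their fitted values depend on the prior count and are no measure of size. Nr4a2 lies at 1.68 and Nr4a1 at 0.81, to the right of all filled points of other receptors, while Nr4a3 is an open symbol. The family was chosen on this contrast, so nothing is read from its place.

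The other early response genes, the group to which the Nr4a genes belong by their regulation, leaned the same way as Nr4a2. Of 42 tested, 9 rose and 0 fell at an unadjusted p under 0.05 in edgeR's quasi-likelihood test, which is 21.4% of them where 7.65% of all genes were called in either direction. Their median log2 fold change was 0.24, against 0.011 over all genes tested, with 35 positive and 7 negative. Earlier results of these data on immediate early genes were known when the list was written, so the count is not independent support. Without the 2 libraries named L3, 5 of the 42 (11.9%) were called, all higher and 4 of them among the 9, where 3.98% of all genes were called. Without standard mouse 3 alone 5 were called, and with edgeR's filterByExpr 2 of the 25 left to test (8%), where 9.36% of all genes were called.

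Of these genes Ptgs2, which encodes the inducible cyclooxygenase of prostaglandin synthesis, was the only one to pass after adjustment. It had 1, 1, 1 and 2 counts in the standard mice and 6, 12, 9, 11 and 15 in the enriched mice, and edgeR's quasi-likelihood fit gave a Benjamini-Hochberg adjusted p of 0.0249. All standard mice were under the floor, so the size is given from summed counts per library total, 5 against 53 counts or a ratio of 7.63 (exact 95% interval 3.07 to 24.4, counting error only). All its WT_EE libraries lay above all its WT_SE libraries, as in 2 of the 42 genes and in 1.38% of all genes tested. No gene passed the adjusted threshold by DESeq2 or without the libraries named L3. Ccn2, a matrix protein gene switched on by stretch and growth factors, averaged 45.9 ± 33.7 CPM (SD) in the standard and 131 ± 50.6 CPM (SD) in the enriched mice, and its log2 difference of 1.43 (standard error 0.31) had an adjusted edgeR p of 0.0527.

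Maff, a small basic leucine zipper factor, had at most 3 counts in the standard mice and 5 to 12 in the enriched mice. Beside Ptgs2 it was the other gene of the list whose groups did not overlap. Gadd45g, a stress response gene, rose by 1.03 on the log2 scale and Ccn1, a relative of Ccn2, by 1.71, both at an unadjusted p under 0.05 only, and Ccn1 had 7 counts in standard mouse 2 beside at most 1 in the other standard mice. The calls of Myc, Nfil3 and Fosb rested on few counts, with at most 4, 1 and 2 counts in any standard mouse. The ninth call was Fos, named after its values were seen, at 74.7 ± 39.2 CPM (SD) in the standard and 113 ± 46.8 CPM (SD) in the enriched mice, with widely overlapping groups and a log2 fold change of 0.56. Other genes of the list with many counts gave small values, such as Jun at 0.04 (standard error 0.15) and Junb at 0.11 (standard error 0.16).

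**Figure D5:**
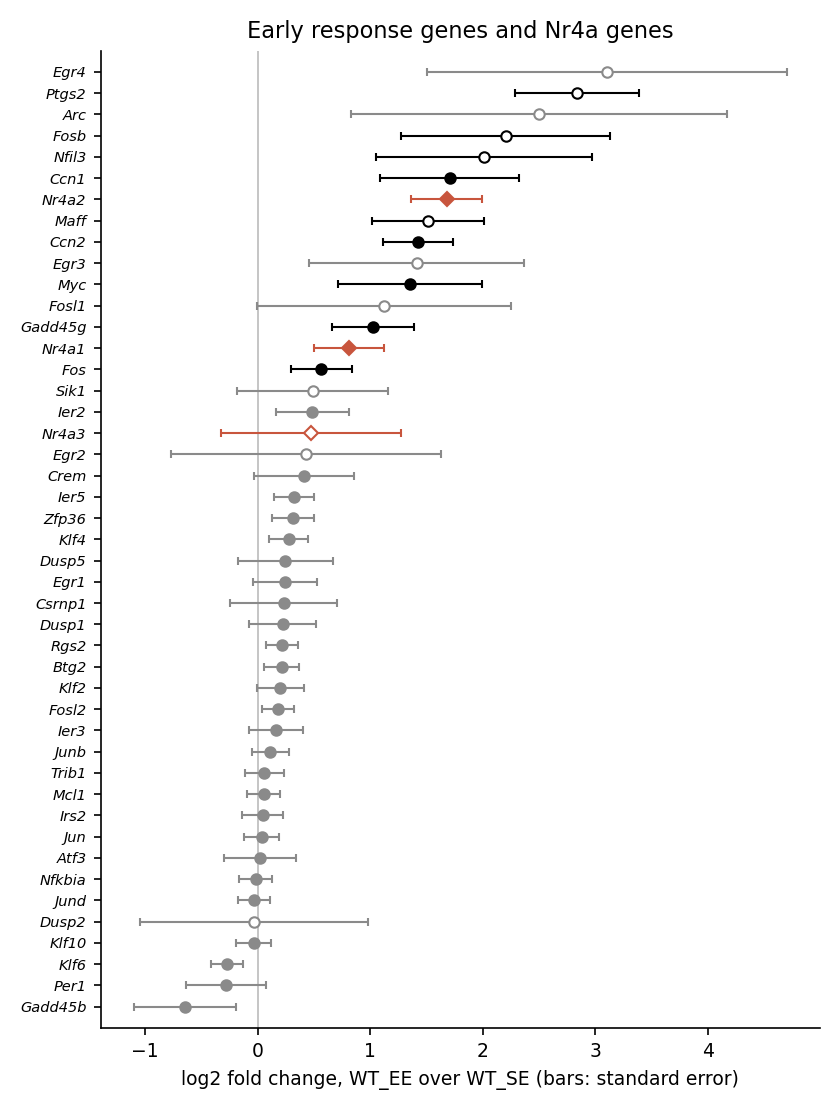
log2 fold change of WT_EE over WT_SE for the 42 other early response genes tested and the 3 Nr4a genes (red diamonds), with standard errors from the edgeR fit; black had an unadjusted p under 0.05, grey did not, and open symbols had at most 3 counts in every WT_SE library, so that their fitted values depend on the prior count and are no measure of size. Nr4a2 at 1.68 lies, among the filled points, between Ccn1 at 1.71 and Ccn2 at 1.43, and Nr4a1 at 0.81 lies between Gadd45g at 1.03 and Fos at 0.56.

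The early response genes were also compared with Nr4a2 mouse by mouse. This was possible for the 25 of them with a mean of at least 10 counts, which leaves out 6 of the 9 called genes. Over these 25, the median Pearson r with Nr4a2 across the 9 libraries was 0.252, against 0.0167 over 8491 genes. A positive r was found for 19 of the 25 (76%) and for 51.5% of the 8491. These r contain the difference between the environments on which the family was chosen. After the mean of each environment was subtracted, the median was 0.154 against 0.0562, and 72% against 55.2% were positive. Before subtraction the highest was Gadd45g, at 0.692. For Nr4a1 the medians were 0.298 before and 0.0997 after subtraction, against −0.0194 and −0.0174 over the 8491 genes. Ccn2 had the highest r with Nr4a1 before subtraction, at 0.956. Fos was highest in enriched mouse 5, at 187 CPM, while Nr4a2 was highest in enriched mouse 4, where Fos was at 89.7 CPM.

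The genes upstream of the Nr4a promoters, the cyclic AMP, CRTC, calcineurin, MEF2 and SRF machinery, showed 3 called higher and 1 called lower of 36 tested (11.1%, where 7.65% of all genes were called), with a median log2 fold change of 0.05. Crtc2, the CREB coactivator that enters the nucleus when cyclic AMP or calcium rises, had 1, 2, 0 and 0 counts in the standard mice and 15, 4, 7, 5 and 9 in the enriched mice, with an adjusted edgeR p of 0.0527 that misses the threshold. Srf, which drives early response genes through the CArG box, had 4, 2, 0 and 3 counts and 10, 7, 12, 5 and 13 counts, a difference of 1.85 on the log2 scale (standard error 0.50). Creb5, a CREB relative, rose by 1.18, and Prkar2a, a regulatory subunit of protein kinase A, fell by 0.33. Without the libraries named L3, 2 of the list were called, both higher. The groups of Crtc2, Srf and Pde4b did not overlap. These were 3 of the 36 tested, where 1.38% of all genes tested had all WT_EE libraries above all WT_SE libraries. Crtc2 and Srf had 4 counts or fewer in every standard mouse. Pde4b had 17 to 24 counts in the standard and 25 to 41 in the enriched mice, and it was not called. Creb1 itself, the factor that binds the CRE, was at 0.10 (standard error 0.15), and it and Crtc3, a second coactivator, did not pass the test.

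Partners of the NR4A proteins gave no call, 0 of 12 tested, also at an unadjusted p under 0.05 in edgeR's test, where 7.65% of all genes were called, and 0 by DESeq2. With the name ending as a covariate or without the libraries named L3, 1 partner was called, the coactivator gene Ncoa3, which was lower. Rxra and Rxrb, the retinoid X receptors with which Nr4a1 and Nr4a2 pair, had log2 fold changes of 0.07 (standard error 0.18) and 0.13 (standard error 0.29). The mean of Rxra was 97.1 CPM in WT_SE and 101 CPM in WT_EE, above the mean of each Nr4a gene, and the third of these receptors, Rxrg, was below the filter. The CoREST members Rcor1 and Kdm1a, which repress together with Nr4a2, had log2 fold changes of 0.05 (standard error 0.16) and 0.08 (standard error 0.23).

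Of 16 genes known as targets of NR4A proteins in other tissues, 12 had a count and 9 could be tested. Only Ret, the receptor of glial cell line-derived neurotrophic factor in enteric neurons, was called, at an unadjusted edgeR p of 0.0153, and 1 of 9 is 11.1% where 7.65% of all genes were called. No target was called without both L3 libraries, with the name ending as a covariate or with filterByExpr, and without standard mouse 1 the call was Tox, lower, in place of Ret. Ret had 2, 5, 2 and 4 counts in the standard mice and 9, 8, 10, 8 and 6 in the enriched mice. Th, the enzyme of dopamine synthesis and the best known target of Nr4a2, had at most 1 count in any library, and the dopamine transporter gene Slc6a3 and the regulatory T cell factor Foxp3 had none. Vip, a neuropeptide gene of enteric neurons, was at −0.36 (standard error 0.28) and Tox, a T cell factor, at −0.27 (standard error 0.15), and neither passed the test. The median log2 fold change of the 9 was −0.27.

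The genes whose level across the 9 mice was most like that of a member were looked up among those with a mean of at least 10 counts, the member itself left out (8492 genes for Nr4a1 and Nr4a2, 8493 for Nr4a3). For Nr4a2 they were Siah2 (r = 0.953), Shisal1 (0.948), Calu (0.945), Rasl11b (0.942) and Ext1 (0.940). With the mean of each environment subtracted, their r with Nr4a2 was between 0.732 and 0.879. Siah2 encodes a ubiquitin ligase of the hypoxia response, Calu a calcium-binding protein of the secretory route and Ext1 an enzyme of heparan sulfate synthesis.

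For Nr4a1 they were Col5a2 (r = 0.976), a fibrillar collagen gene, Zbtb8os (0.974), Foxp2 (0.965), a forkhead factor, Ccn2 (0.956) and Casq2 (0.952), a calcium store protein of muscle. Without standard mouse 3, the library farthest from the median of Nr4a1, these values fell to between 0.863 and 0.930. For Nr4a3 the nearest were Sec63 (0.943), Nasp (0.924), Ssr2 (0.899), Ovol2 (0.897) and Sec61b (0.890), with little weight since Nr4a3 itself had 6 counts at most. None of the 5 genes nearest to a member was shared by another member. These are the highest of 8492 or 8493 values for each member, each over 9 libraries, and are given with no p.

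Summed markers of cell types were set beside Nr4a2 over the 9 libraries. Each r with a marker sum contains the difference between the environments on which the family was chosen. The environment means were not subtracted for these sums, so nothing is read from them about single mice. The 4 enteric glia markers, all of them with counts, summed to between 21.9 and 61.3 CPM in WT_SE and between 48.6 and 89.7 CPM in WT_EE, with r = 0.606 to Nr4a2 and 0.692 to Nr4a1 across the 9 libraries. The 4 endothelial markers, all with counts, summed to between 103 and 170 CPM and between 153 and 223 CPM, with r = 0.672 to Nr4a2. Hemoglobin and other blood genes, 4 of 4 with counts, ran the other way, between 183 and 304 CPM and between 130 and 244 CPM, with r = −0.666 to Nr4a2. The 7 smooth muscle markers all had positive log2 fold changes, with a median of 0.36, and r = 0.423 between their sum and Nr4a2. Of these 7, 3 (Acta2, Des and Smtn) were called higher at an unadjusted edgeR p under 0.05, where 4.31% of all genes tested were called higher. B cell markers, 5 of 6 with counts, were at 57.4, 64.0, 3.38 and 8.20 CPM in WT_SE mice 1, 2, 3 and 5. In WT_EE they were at 0 to 8.64 CPM, a range that holds standard mice 3 and 5, with r = −0.588 to Nr4a2. Of the 4 tested, 3 were called lower at an unadjusted edgeR p under 0.05, where 3.34% of all genes tested were called lower. These were Ms4a1, Cr2 and Cd79b, the last with at most 3 counts in any library. The 6 heat shock genes, chaperones of the cell's stress response, summed to between 368 and 566 CPM and between 422 and 656 CPM, with r = 0.502 to Nr4a2. Of these Hspa1b, with 30.8 CPM in WT_SE and 77.0 CPM in WT_EE, had a log2 fold change of 1.30 with an adjusted edgeR p of 0.0527. It was the only 1 of the 6 with all WT_EE libraries above all WT_SE libraries, as in 1.38% of all genes tested. Hspa1a had a log2 fold change of 1.17 with an unadjusted call only, and 4.31% of all genes tested had such a call higher. The ranges of the groups overlapped for all of these sums, unlike those of Nr4a2, and their part in the difference was not tested.

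Macrophages and T cells are the cells in which Nr4a1 is best known. The 7 macrophage markers, all with counts, summed to between 189 and 284 CPM in WT_SE and between 152 and 281 CPM in WT_EE, with r = −0.444 to Nr4a2 and −0.03 to Nr4a1. The 6 T cell markers summed to between 16.4 and 44.6 CPM and between 9.28 and 45.9 CPM, with Cd3d, Cd3g and Cd4 at or under the floor of 3 counts in every library, and the 3 mast cell markers had no counts. Clock genes, 14 of 14 with counts, summed to between 933 and 1459 CPM and between 801 and 1224 CPM, with r = −0.367 to Nr4a2. The hour at which each mouse was killed within the light phase is not given in the sources used here, and its part in the level of these early response genes was not tested.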

How the data were processed

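Total RNA of frozen colon pieces was converted to 3′ messenger RNA libraries (QuantSeq with unique molecular identifiers). The authors aligned reads with STAR to GRCm38 and deposited whole-number molecule counts per gene and mouse, without normalization. The submitters' processing notes list fastp 0.20.0, STAR 2.7.0f, featureCounts 1.6.0 and UMI-tools, and the setting for strand is not given in the sources used here. Where a count or floor is given with an error, it covers counting error only.

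The filter was 4 CPM in 1 library or more, passed by 17441 genes. Counts were fitted in R 4.3.3 with edgeR 4.0.16 (TMM, quasi-likelihood F test, environment as the only term), with Benjamini-Hochberg adjustment over the genes that passed. Standard errors of edgeR fits were derived from that F test, as the absolute log2 fold change divided by the square root of F. Those of the members are for description only. CPM (counts-per-million) used TMM library sizes, and log2 CPM a prior count of 2. Level ratios of the 3 pairs were put through exact sign flips over the 9 libraries in python 3.11.15, and only the p of Nr4a1 to Nr4a3 is given. The smallest of the 9 totals was 295535 counts. Steps were tested on simulated data. The p-values of edgeR and DESeq2 set the difference between the groups against the spread between these mice. Spread between cages could not be separated, since which mice shared a cage is not given.

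The members and all lists (nuclear receptors, early response genes, upstream signalling, partners, targets, cell type markers) were chosen with earlier results of these data known. From each list, genes with an adjusted p under 0.05 and then those with the smallest unadjusted p, up to 8, were named, with the 3 greatest changes among nuclear receptors. For each member the 5 genes with the highest r were named. Slc10a2, Hoxb13, Fos and the members used to show the spread within a list (Jun, Junb, Creb1, Crtc3, Pde4b, Rxra, Rxrb, Rxrg, Rcor1, Kdm1a, Ncoa3, Th, Slc6a3, Foxp3, Vip, Tox, and the smooth muscle, B cell and heat shock genes) fall outside this rule. Promoters came from RefSeq (GRCm38.p6), where all 3 members matched by symbol. Alternatives were other filters (none, filterByExpr), RLE and upper quartile scaling, DESeq2 1.42.0, a replicate block, the name ending as a covariate, and left-out libraries.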

Additional observations from a re-analysis of the deposited data

Results flagged for a closer look

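Over the 50 groups of values looked at for the genes named from the lists and the members, 3 had a mouse that stood far from the rest of its group, where chance alone flags about 1 group in 20. None of them was a value of Nr4a1, Nr4a2, Nr4a3 or their sum. Ccn1 was at 19.5 CPM (7 counts) in standard mouse 2, where the other standard mice were between 0 and 2.73 CPM. Fosb was at 5.47 CPM (2 counts) in standard mouse 5 and at 0 in the other standard mice. Pgr was at 2.61 CPM (1 count) in standard mouse 1 and at 0 in the others. The last of these values, and that of Fosb, lie under the floor of 3 counts.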

How the results depend on the processing

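The log2 fold change of Nr4a2 lay between 1.49 and 1.83 under all 17 alternatives and that of Nr4a1 between 0.48 and 1.07, the lowest with the name ending as a covariate. With the replicate block, the values were 1.49 for Nr4a2 and 0.93 for Nr4a1, and 70 genes passed after adjustment instead of 7. Same-numbered mice gave correlations of −0.0218, 0.0466, 0.113 and 0.126. These were not set against mice of different numbers, so they do not decide whether the numbers pair the mice. The genes called after adjustment were 143 with no filter and 0 with filterByExpr, DESeq2, the name ending as a covariate or without both L3 libraries. At an unadjusted p under 0.05 these 4 settings called 804, 643, 688 and 680 genes instead of 1334. They called 2, 5, 5 and 5 early response genes instead of 9. Nuclear receptors called were 8 with no filter, 2 by DESeq2, and 3 in both settings on the name ending, instead of 5. Those 2 settings called 2 upstream genes instead of 4, 1 partner instead of 0 and 0 targets instead of 1, and filterByExpr called 0 targets. Leaving out 1 library at a time gave 0 to 48 genes after adjustment (0 without WT_SE 3, 1 without WT_SE 1 or WT_EE 5, 2 without WT_EE 4, 20 without WT_EE 3, 35 without WT_SE 2, 37 without WT_SE 5, 48 without WT_EE 1), 5 to 11 early response genes (5 without WT_SE 3) and 3 to 7 upstream genes (7 without WT_SE 2). The log2 ratio of Nr4a1 to Nr4a2 lay between −0.23 and 0.09, turning positive without WT_EE 4. That of Nr4a1 to Nr4a3 lay between 2.36 and 3.04 and passed the test in every fit. With upper quartile scaling 45% of the calls were higher instead of 56.3%. The cause of these changes was not tested, other than that fewer genes or mice enter where a filter or a library is taken away.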
